A study of Mus musculus with 8 samples.

Results

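The iron chelator deferoxamine (DFO) was given to C2C12 myotubes that carried an adenovirus for GFP-tagged PGC-1α, and the arrays of those cultures were set against arrays of cultures with the same virus and no DFO. The 4 arrays were chosen by their labels out of 8 in the series, 2 labelled PGC-1α plus DFO and 2 labelled PGC-1α alone. C2C12 is an established mouse myoblast line that fuses into multinucleated myotubes when serum is lowered. In all groups the cells had 3 days in 2% dialysed serum before infection, and RNA was taken 3 days after it. The DFO groups received 100 µM of the compound. Both groups compared carried the construct, so by their labels they differ by DFO alone. The other 4 arrays, GFP virus with and without the same DFO dose, were used for the spread and for a test of whether the construct altered the change with DFO. The virus raises PGC-1α far above its level in these cells, in 1 cell line, and the series text describes each pair of arrays as biological duplicates.

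DFO binds ferric iron and withdraws it from cells. The prolyl hydroxylases Egln1, Egln2 and Egln3 need iron and oxygen to mark hypoxia-inducible factor (HIF) for breakdown through Vhl, so loss of iron or oxygen lets HIF accumulate and turn on genes of glucose uptake, glycolysis, vessel growth and mitophagy. PGC-1α, encoded by Ppargc1a, is a transcriptional coactivator that raises genes of mitochondrial respiration and fatty acid oxidation in muscle, many of whose enzymes hold iron-sulfur clusters or haem.

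Values are deposited intensities on a linear scale, and changes are differences of mean log2 intensity, PGC-1α plus DFO minus PGC-1α, ± SE from limma. A gene is said to rise or fall where its limma adjusted p was under 0.05 over 18193 genes. With 2 arrays a side, an exact permutation test cannot go below p = 0.333, so all p-values lean on the spread pooled over the 4 groups. Array medians lay between 59.45 and 62.82. The mean log2 signal of the 24 poly-A spike-in probe sets, RNAs added in fixed amount before labelling, was 8.11 and 7.97 on the arrays with DFO and 8.61 and 8.35 on those with PGC-1α alone, while the 4 GFP arrays read from 8.54 to 8.77. The 18 hybridisation control probe sets read 9.67 and 9.46 with DFO against 9.91 and 9.82 without. Scaling arrays to the poly-A spike-ins put the all-gene median at 0.45 in place of 0.01, and scaling to the hybridisation controls put it at 0.31, so every change below is relative to the deposited scale. Beta-actin signal at the 5' end relative to the 3' end, which drops as RNA degrades, stood at 0.753 and 0.811 with DFO and at 0.919 and 0.897 without. The arrays with DFO thus stood apart in spike-in signal and in this ratio, and the part of either in the results was not tested beyond the alternative scales given here.

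The construct was present on both sides. Ppargc1a read 7211 and 7036 intensity units with PGC-1α alone and 7930 and 7710 with DFO, a log2 change of 0.13 ± 0.55 (limma adjusted p = 0.892). The 4 GFP arrays read from 26.6 to 88.1 on the same probe set. The other 4 probe sets of the gene were dim and lower with DFO, at log2 changes of -2.03, -0.99, -0.93 and -0.98, and 3 of them passed in a fit of every probe set (limma adjusted p = 0.00521, 0.0179, 0.0816 and 0.0338). With the mean of the 5 probe sets in place of the brightest, the change was -0.96 (adjusted p = 0.0168). Signal from the construct and from the cells' own gene was not separated.

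Limma called 4662 of 18193 genes (25.6%), 2079 higher (11.4%) and 2583 lower (14.2%). On the spike-in scale the same fit called 4201, of which 3398 were higher, 80.9% against 44.6% on the deposited scale, and on the hybridisation-control scale 72.4% of 5264 were higher. Leaving out PGC-1α replicate 1 gave 2637 calls, leaving out its replicate 2 gave 3084, and the count was 3483 to 4130 without any of the other 6 arrays. By list, HIF targets, cholesterol synthesis, inflammatory genes and collagen hydroxylases had the largest shares of rises, and muscle differentiation and sarcomere genes the largest shares of falls. The plot of called shares by list shows this order beside the shares over all genes. Genes above the median level were called more often, 3738 of 9096, and most lists consist largely of such genes. Haem (44.4%), cell cycle exit (42.1%) and iron-sulfur assembly (40.9%) were called about as often as those genes. Iron handling (34.8%), mitophagy (33.3%), PGC-1α partners (33.3%), biogenesis (33.3%) and complex IV (28.6%) were called less often. Interferon-stimulated genes, mostly dimmer, were called about as often as all genes.

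**Figure D1:**
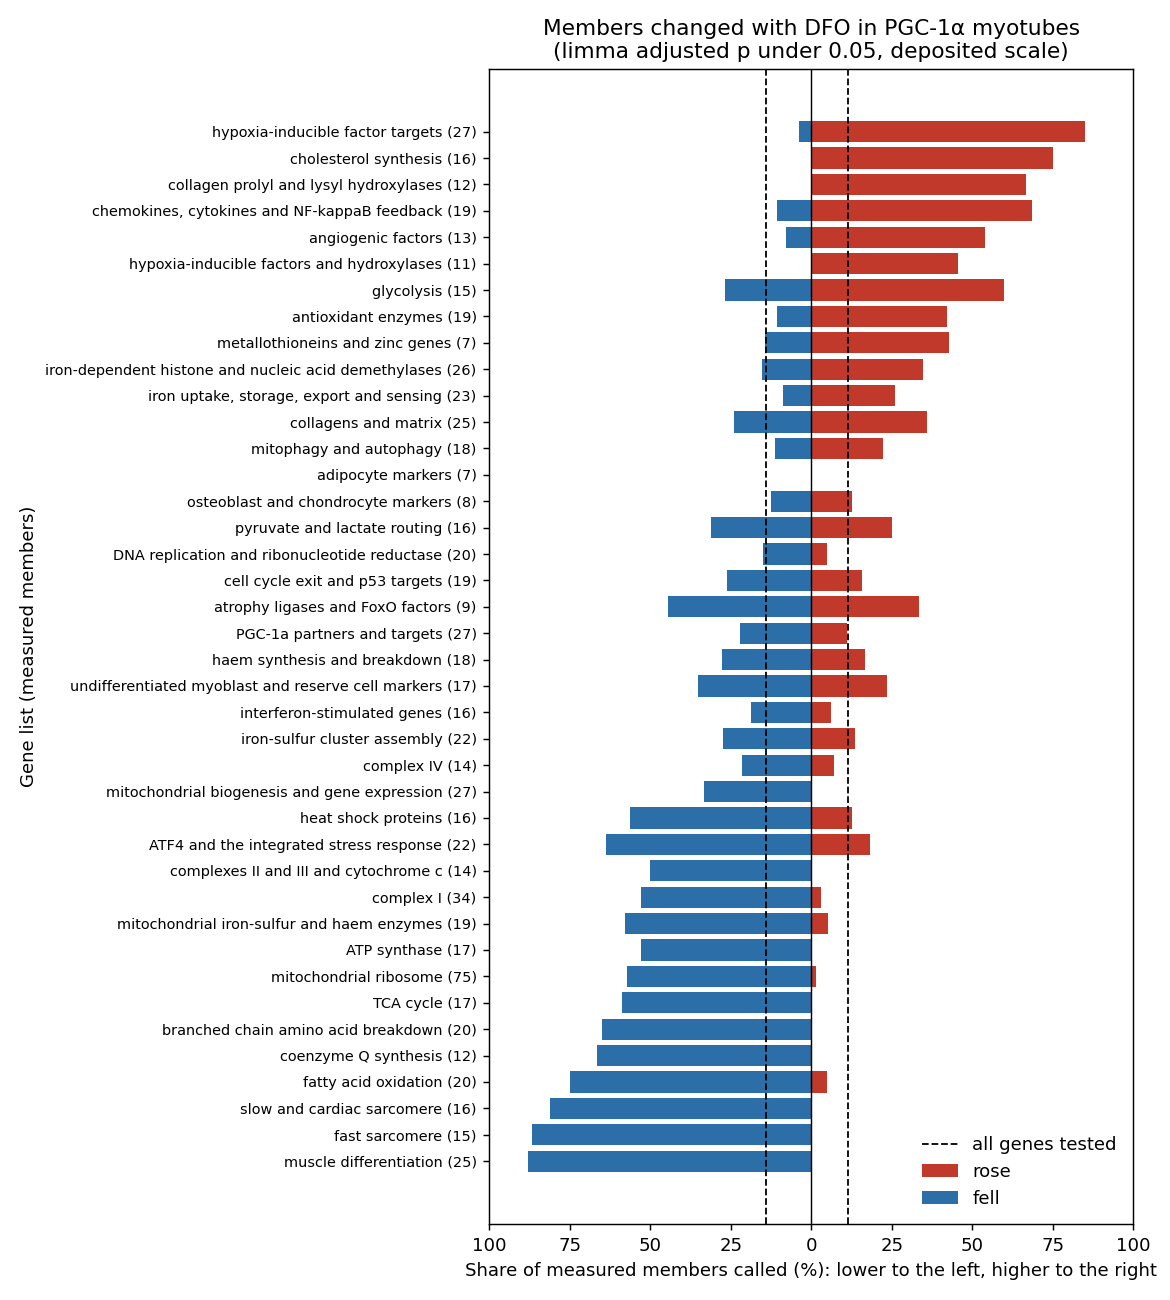
Share of measured members of each gene list, in percent, that rose (right, red) or fell (left, blue) with DFO in PGC-1α myotubes at a limma adjusted p under 0.05; the number after each list is its measured members and the dashed lines mark 11.4% higher and 14.2% lower over all genes tested. HIF targets are at the top with 23 of 27 risen and muscle differentiation is at the bottom with 22 of 25 fallen.

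The start regions of 8 genes called in the HIF, inflammatory and muscle lists are shown first. They were picked because each holds the core motif of a factor known for that list. The sequences are the 160 bases before the annotated start, from RefSeq on GRCm38.p6, 5' to 3' on the gene's strand, with the motif in capitals. ACGTG, the core of the hypoxia response element, was searched on both strands in the 250 bases before each start and stood in 17 of the 23 HIF-list genes with a promoter in the table (73.9%). It stood in 22.5% of all measured genes and in 16.6% of all 32851 promoters. So short a motif is common, and a match describes the letters, not binding. Its first base lay 6 bases before the start in Ankrd37 (chr8:45999851-46000010, minus strand), 36 in Slc2a1 (chr4:119108585-119108744, plus strand), 63 in Ero1a (chr14:45318573-45318732, minus strand), 78 in P4ha2 (chr11:54100764-54100923, plus strand), and 108 in Bnip3 (chr7:138909507-138909666, minus strand), where the palindrome CACGTG holds the motif on both strands.
Ankrd37: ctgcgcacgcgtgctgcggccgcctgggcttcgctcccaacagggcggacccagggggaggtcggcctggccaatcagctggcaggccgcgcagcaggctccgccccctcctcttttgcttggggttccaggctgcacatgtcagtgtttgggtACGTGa
Slc2a1: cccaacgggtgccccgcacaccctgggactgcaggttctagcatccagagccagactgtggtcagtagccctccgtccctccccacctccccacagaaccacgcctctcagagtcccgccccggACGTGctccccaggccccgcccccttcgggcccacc
Ero1a: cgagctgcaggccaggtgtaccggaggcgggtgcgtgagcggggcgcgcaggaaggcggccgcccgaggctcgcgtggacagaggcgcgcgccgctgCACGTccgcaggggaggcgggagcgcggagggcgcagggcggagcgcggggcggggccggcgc
P4ha2: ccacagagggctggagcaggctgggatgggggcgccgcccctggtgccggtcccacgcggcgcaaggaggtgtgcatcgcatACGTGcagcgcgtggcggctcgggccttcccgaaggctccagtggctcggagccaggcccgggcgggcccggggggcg
Bnip3: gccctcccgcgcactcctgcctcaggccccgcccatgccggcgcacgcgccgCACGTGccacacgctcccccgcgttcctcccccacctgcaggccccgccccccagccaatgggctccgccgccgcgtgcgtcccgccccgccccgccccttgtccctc

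The motif GGGA, any base, TTTCC, searched on both strands and a form of the site bound by NF-kappaB, stood in 4 of 14 genes of the inflammatory list with a promoter. It stood in 0.498% of all measured genes with a promoter and in 0.356% of all promoters. It lay 71 bases before the start in Cxcl1 (chr5:90891085-90891244, plus strand) and 44 bases before it in Il6 (chr5:30012954-30013113, plus strand). CAGCTG, an E-box that MyoD and myogenin can bind and that reads the same on both strands, stood in 7 of 17 muscle differentiation genes with a promoter. Over all measured genes with a promoter the share was 14.9%, and over all promoters 13.0%. Chrng (chr1:87205651-87205810, plus strand) held it at 155 and 132 bases before the start.
Cxcl1: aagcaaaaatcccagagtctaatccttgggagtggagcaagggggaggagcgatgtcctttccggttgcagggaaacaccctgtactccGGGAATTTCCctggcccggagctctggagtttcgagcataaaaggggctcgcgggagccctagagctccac
Il6: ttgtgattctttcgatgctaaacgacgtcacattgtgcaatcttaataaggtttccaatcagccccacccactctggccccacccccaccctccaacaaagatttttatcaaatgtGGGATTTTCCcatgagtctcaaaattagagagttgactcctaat
Chrng: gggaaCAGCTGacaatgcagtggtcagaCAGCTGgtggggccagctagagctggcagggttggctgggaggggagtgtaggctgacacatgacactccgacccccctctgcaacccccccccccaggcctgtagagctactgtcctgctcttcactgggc

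HIF targets rose almost as a body. Of 27 measured targets 23 rose and 1 fell, with a median log2 change of 1.78 against 0.01 over all genes, and 2.22 on the spike-in scale. The median of the same list with DFO in GFP cells was 2.08. Car9, a carbonic anhydrase that lowers extracellular pH, read 18.0 and 33.3 without DFO and 1057 and 1004.5 with it (log2 change 5.39 ± 0.31, limma adjusted p = 0.000406). Ankrd37 went from 97.4 and 79.3 to 1631 and 1554 (4.18 ± 0.12), and Ndrg1, a gene induced by low oxygen in many tissues, from 556 and 540 to 7232 and 6420 (3.64 ± 0.15). Both arrays with DFO lay far above both without it for each of these genes, and the intensities with DFO in GFP cells were close by, at 1288 and 1239 for Car9 and 7795 and 7485 for Ndrg1. Slc2a1, the glucose transporter GLUT1, rose from 795 and 772 to 7063 and 6316 (3.09 ± 0.09). Ero1a, an oxidase of the endoplasmic reticulum, rose from 890 and 931 to 6970 and 7099 (2.95 ± 0.08). Bnip3, a mitophagy receptor, rose from 1487 and 1362 to 5979 and 5924 (2.06 ± 0.09). The 5 genes whose promoters with ACGTG are printed had groups that did not overlap, all higher with DFO, as was so for 60.7% of all genes (30.1% higher and 30.6% lower with DFO).

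A few members of the list moved little, moved the other way or did not pass on the probe set used. Stc2, stanniocalcin 2, fell from 431 and 475 to 298 and 297 (-0.61 ± 0.12, limma adjusted p = 0.0175), a call that ended without any of the 4 arrays compared and on the spike-in scale (-0.17). Pgk1, a glycolytic kinase, read 8542 and 8654 without DFO and 9747 and 9825 with it (0.19 ± 0.08, limma adjusted p = 0.152). Pdk1, which inhibits pyruvate dehydrogenase, read 938 and 1014 without DFO and 1948 and 1819 with it. Its change of 0.95 ± 0.27 did not pass (adjusted p = 0.0553) but did on the spike-in scale (1.39, adjusted p = 0.0283). Its other probe sets had 1.66, 1.19 and 0.46 (limma adjusted p = 0.000698, 0.0372 and 0.308 in a fit of every probe set). With the mean of its probe sets the change was 1.06 (adjusted p = 0.011). Pfkfb3 had 0.53 ± 0.29 (adjusted p = 0.257), but its second probe set rose by 1.97, the mean of both was 1.25 (adjusted p = 0.01), and without PGC-1α plus DFO replicate 1 the change was 0.96 (adjusted p = 0.0252) against 0.10 without replicate 2. Its relative Pfkfb4, which also sets the level of the phosphofructokinase activator fructose 2,6-bisphosphate, rose from 286 and 282 to 787 and 716 (1.40 ± 0.09). In GFP cells Pfkfb4 read 215 and 201 without DFO and 233 and 226 with it, and the difference of the changes was 1.26 ± 0.13 (interaction adjusted p = 0.0443, from 0.0557 to 0.233 with an array left out).

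The oxygen-sensing machinery itself changed in part. Of 11 factors and hydroxylases 5 rose and the other 6 did not pass, with a median of 0.34. Egln1, the main hydroxylase of HIF, rose from 1170 and 1183 to 3605 and 3286 (1.55 ± 0.09). Egln3 rose from 711 and 665 to 1489 and 1432 (1.09 ± 0.09) and Egln2 from 791 and 778 to 1319 and 1223 (0.69 ± 0.08). Vhl, the ubiquitin ligase subunit that binds hydroxylated HIF, rose from 243 and 283 to 748 and 672 (1.43 ± 0.11), and Hif1a from 1485 and 1428 to 2825 and 2720 (0.93 ± 0.08, limma adjusted p = 0.00121). All 5 stayed called with any array left out and on both other scales.

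Glycolytic enzymes moved both ways. Of 15 enzymes 9 rose and 4 fell, with a median of 0.43. Aldoc, aldolase C, rose from 55.3 and 45.5 to 455 and 358 (3.01 ± 0.22), Pfkl, the liver isoform of phosphofructokinase, from 872 and 956 to 3949 and 3395 (2.00 ± 0.12), and Hk2, hexokinase 2, from 1652 and 1682 to 4551 and 3946 (1.35 ± 0.10). The largest falls were of muscle isoforms. Pgam2, muscle phosphoglycerate mutase, went from 1439 and 1472 to 50.1 and 37.0 (-5.08 ± 0.21), Eno3, muscle enolase, from 6008 and 6180 to 849 and 788 (-2.90 ± 0.09), and Pfkm, muscle phosphofructokinase, from 4253 and 4204 to 1345 and 1300 (-1.68 ± 0.08). Ldha, which makes lactate from pyruvate, rose from 7076 and 7114 to 9639 and 9421 (0.43 ± 0.08, adjusted p = 0.019), a call that ended without either PGC-1α array or without the first array with DFO (adjusted p from 0.0547 to 0.0943). Ldhb, the isoform of oxidative tissues, fell from 3695 and 4050 to 2759 and 2635 (-0.52 ± 0.12), a call that ended without any of the 4 arrays and on the spike-in scale (-0.08).

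Among 16 genes that route pyruvate and lactate, 4 rose and 5 fell, while 6 rose and 1 fell on the spike-in scale. Without PGC-1α replicate 1 the counts were 2 and 1. Slc16a3, the lactate exporter MCT4, rose from 90.3 and 77.6 to 279 and 262 (1.69 ± 0.11). Pdp1, the phosphatase that activates pyruvate dehydrogenase, fell from 834 and 798 to 212 and 199 (-1.99 ± 0.10). Pdk4, which inhibits the same enzyme and is a target of PGC-1α, rose from 1526 and 1692 to 2503 and 2329 (0.59 ± 0.10, adjusted p = 0.0112, and 0.0661 without PGC-1α replicate 1).

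Of 13 angiogenic factors 7 rose and 1 fell, with a median of 0.75. Pgf, placental growth factor, rose from 50.1 and 57.4 to 2978 and 2621 (5.70 ± 0.24), against 1259 and 1271 with DFO in GFP cells. Apln, the peptide apelin, rose from 60.5 and 58.0 to 1133 and 1076 (4.22 ± 0.17). Vegfa, the principal growth factor of vessels and a target of both HIF and PGC-1α, rose from 1615 and 1619 to 2763 and 2691 (0.75 ± 0.09, limma adjusted p = 0.00364). In GFP cells Vegfa went from 932 and 1019 to 2431 and 2264 (1.27). The difference of its changes was -0.51 (interaction adjusted p = 0.148). Angpt1, a ligand that stabilises vessels, fell from 1382 and 1421 to 133 and 119 (-3.48 ± 0.17).

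Enzymes that hydroxylate collagen rose in 8 of 12, with a median of 0.92, and 8 rose on either other scale. These enzymes need iron as HIF hydroxylases do. P4ha2, a catalytic subunit of collagen prolyl 4-hydroxylase, rose from 484 and 486 to 4741 and 4399 (3.24 ± 0.10), P4ha1 from 678 and 724 to 2971 and 2721 (2.02 ± 0.09) and their partner P4hb from 2455 and 2582 to 8519 and 7919 (1.71 ± 0.08). Plod2, a lysyl hydroxylase, rose from 500 and 562 to 4447 and 4027 (3.00 ± 0.11). Collagens and other matrix genes were mixed. Of 25 measured 9 rose and 6 fell, with a median of 0.03. Lox, which cross-links collagen, rose from 961 and 920 to 8416 and 8632 (3.18 ± 0.09), while its relative Loxl1 fell from 1282 and 1255 to 268 and 213 (-2.41 ± 0.13), a call that ended with the mean of its probe sets. Col5a3, a collagen chain, rose by 2.89 on the log2 scale (limma adjusted p = 0.000264), a call that ended with the mean of its probe sets. Another chain, Col6a2, fell from 581 and 543 to 137 and 147 (-1.98 ± 0.10).

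Another family of iron-dependent oxygenases, the demethylases of histones and nucleic acids, rose in 9 of 26 and fell in 4. The counts were lowest at 4 and 2, without PGC-1α replicate 1 and replicate 2 respectively. Kdm3a, a histone H3 lysine 9 demethylase and HIF target, rose from 414 and 391 to 1436 and 1335 (1.78 ± 0.08). Alkbh5, an RNA demethylase, rose from 1125 and 1155 to 3214 and 2972 (1.44 ± 0.11) and Jmjd6 from 821 and 805 to 2034 and 2051 (1.33 ± 0.08).

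**Figure D2:**
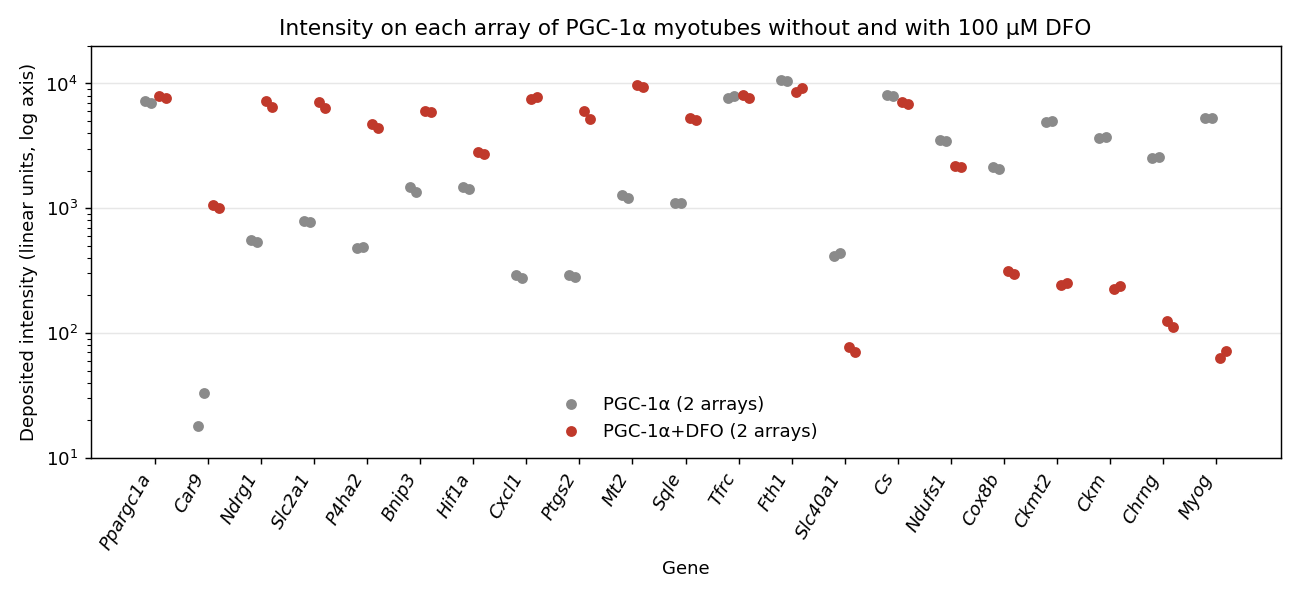
Deposited intensity on a log axis of 21 genes on each of the 4 arrays of PGC-1α myotubes, without DFO in grey and with 100 µM DFO in red; each point is 1 array. Ppargc1a and Tfrc lie level, HIF targets such as Ndrg1 and Slc2a1 lie higher with DFO and muscle genes such as Ckm and Myog lie lower.

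Inflammatory genes rose with DFO in PGC-1α cells. Of 19 chemokines, cytokines and NF-kappaB feedback genes 13 rose and 2 fell, with a median of 1.26, and with 1 array left out the rises were 10 to 13. With DFO in GFP cells 7 of them rose and 2 fell, with a median of 0.01, against 11.8% higher and 12.5% lower over all genes there. Cxcl1, a chemokine that draws neutrophils, read 290 and 275 without DFO and 7552 and 7757 with it (4.76 ± 0.08, limma adjusted p = 6.42e-05). In GFP cells it read 242 and 238 without DFO and 298 and 311 with it. Only the combined arrays were high, and the change differed between the constructs by 4.42 ± 0.11 (interaction adjusted p = 0.00186). That call held with 7 of the 8 arrays left out in turn and ended without GFP plus DFO replicate 1 (adjusted p = 0.0582). Its other 2 probe sets rose too, by up to 7.47.

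Several neighbours of Cxcl1 in function were also highest on the combined arrays. Cxcl5, a related chemokine, read 50 and 67.6 without DFO and 854 and 946 with it, against 56.2 and 64.8, and 42.2 and 20.9, in GFP cells. Il6, a cytokine that muscle releases, read 23.6 and 7.67 without DFO and 547 and 616 with it (5.43 ± 0.51), against at most 32.1 on the GFP arrays. Saa3, an acute phase protein, went from 5.40 and 16.3 to 421 and 370 (5.40 ± 0.57). The untreated values of these 3 genes are dim, so the size of their changes is uncertain, while the values with DFO lay clear of all 6 other arrays. Lcn2, lipocalin 2, which binds iron-carrying siderophores, rose from 525 and 511 to 2455 and 2441 (2.24 ± 0.08), against 280 and 264 with DFO in GFP cells. Ccl2, a chemokine for monocytes, rose from 274 and 255 to 599 and 673 (1.26 ± 0.11), and read 198 and 212 with DFO in GFP cells.

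Ptgs2, the inducible cyclooxygenase, rose in both settings, from 292 and 283 to 6021 and 5221 under PGC-1α (4.29 ± 0.11) and from 281 and 311 to 1982 and 1894 with GFP. Lif, a cytokine of the IL-6 family, rose from 32.0 and 44.1 to 686 and 624 (4.12 ± 0.21). Feedback inhibitors of NF-kappaB rose as well. Tnfaip3 went from 126 and 112 to 443 and 387 (1.80 ± 0.11) and Nfkbia from 3037 and 3075 to 5899 and 5874 (0.95 ± 0.08). The other, dimmer probe sets of Nfkbia had 2.50, 2.49, 2.64 and 0.37 (limma adjusted p = 0.000337, 0.000418, 0.000612 and 0.125 in a fit of every probe set). The members that fell were Cxcl12, at -1.26 ± 0.14, whose call ended with the mean of its probe sets, and Tnf, whose values were all under 40 units. The interaction passed for 6 of the 19 genes: Cxcl1, Cxcl5, Saa3, Ptgs2, Lcn2 and Ccl2. Apart from Cxcl1 and, without PGC-1α plus DFO replicate 1, Lcn2 (adjusted p = 0.0463), these interaction calls ended with any array left out. Of 16 interferon-stimulated genes, which respond to viral RNA and DNA, 1 rose and 3 fell. Cxcl10 had 0.67, Ifit2 -2.07, Ifit1 -1.01 and Usp18 -0.60, all at intensities under 100, and only Ifit2 stayed called with any array left out.

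**Figure D3:**
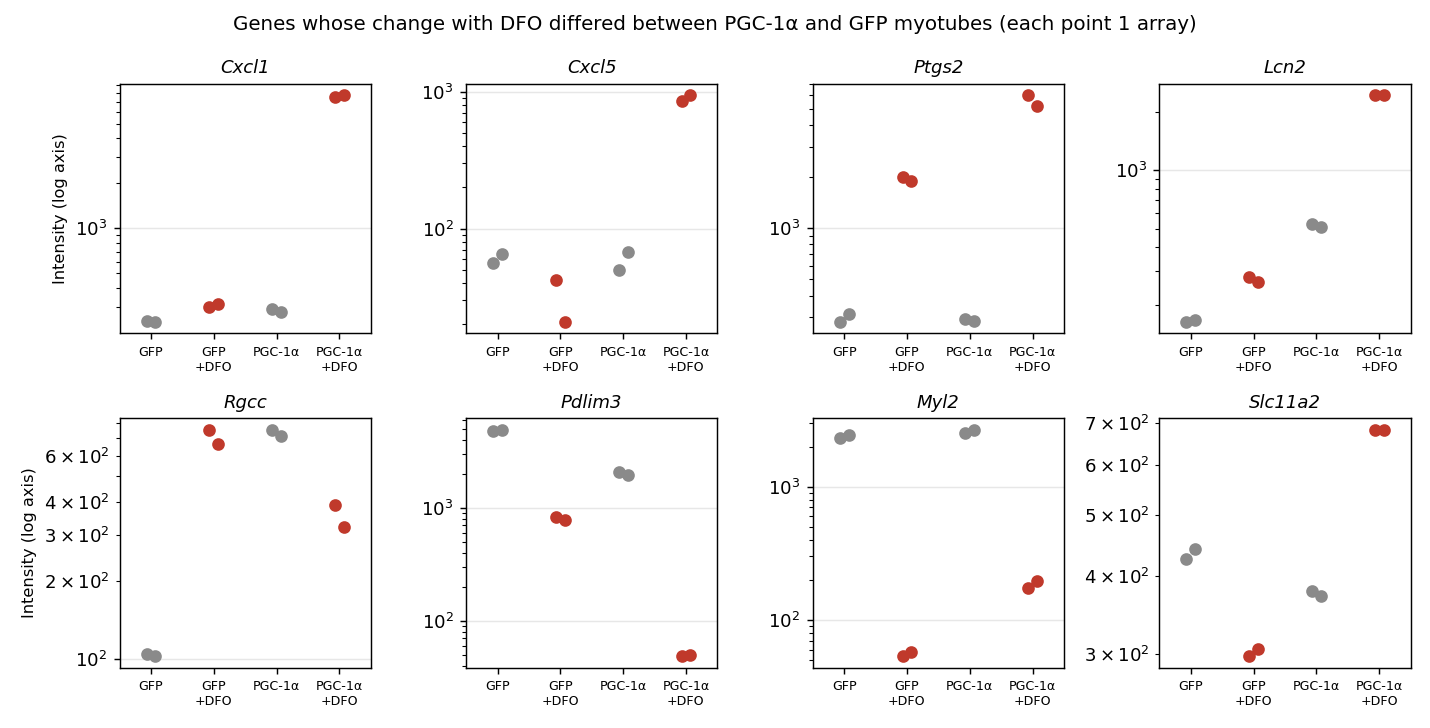
Intensity on a log axis of 8 genes whose change with DFO differed between PGC-1α and GFP myotubes; each point is 1 array and the groups are GFP, GFP plus DFO, PGC-1α and PGC-1α plus DFO. Cxcl1 is at 7552 and 7757 on the combined arrays and between 238 and 311 on the other 6.

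Muscle genes were the lists with the largest shares of falls. Of 25 muscle differentiation genes 22 fell and 3 did not pass, with a median of -2.63, and 21 fell on the spike-in scale with a median of -2.19. In bulk RNA, fewer cells of a type and less RNA per cell cannot be told apart. Myog, the transcription factor that drives differentiation, went from 5296 and 5245 to 63.1 and 71.1 (-6.30 ± 0.13, limma adjusted p = 6.42e-05). Myod1, which acts before it, went from 1081 and 1098 to 58.9 and 43.7 (-4.43 ± 0.15) and Mef2c, their partner, from 898 and 977 to 97.6 and 81.7 (-3.39 ± 0.12). On both arrays with DFO all 3 factors were far below both arrays without it, and Myog was at 174 and 141 with DFO in GFP cells.

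Genes of fusion fell with them. Mymx, or myomixer, went from 572 and 526 to 7.93 and 9.15 (-6.01 ± 0.16) and Mymk, or myomaker, from 4954 and 5154 to 636 and 559 (-3.08 ± 0.10). Chrng, the fetal subunit of the muscle acetylcholine receptor, whose promoter is printed above, went from 2521 and 2569 to 125 and 112 (-4.43 ± 0.09). With GFP it went from 4391 and 4106 to 710 and 707, and the changes differed by -1.84 ± 0.13 (interaction adjusted p = 0.0251, from 0.041 to 0.178 with an array left out). Ckm, muscle creatine kinase, went from 3651 and 3710 to 224 and 237 (-4.00 ± 0.09). A second, dimmer probe set of Ckm did not fall (0.17). Des, the intermediate filament desmin, had -0.24 ± 0.10 (adjusted p = 0.155), at 5290 and 5451 without DFO and 4863 and 4236 with it, so loss was uneven among structural genes.

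Fast sarcomere genes fell in 13 of 15, with a median of -2.42, and slow and cardiac ones in 13 of 16, with a median of -2.33. The same numbers fell on the spike-in scale and with any array left out. Atp2a1, the calcium pump of fast fibres, went from 4187 and 4413 to 324 and 331 (-3.71 ± 0.08), and the fast and perinatal myosin heavy chains Myh4 and Myh8 fell by 3.37 and 3.41 on the log2 scale. In the slow list Mybph, a myosin binding protein, went from 3488 and 3447 to 80.3 and 96.6 (-5.30 ± 0.13). Tnnt1, slow troponin T, went from 5698 and 5742 to 1141 and 1089 (-2.36 ± 0.08). Myl2, the slow and ventricular myosin light chain, went from 2518 and 2687 to 173 and 196 (-3.82 ± 0.10), and in GFP cells from 2346 and 2444 to 53.3 and 57.9. It was thus higher with DFO under PGC-1α than under GFP, with a difference of changes of 1.61 ± 0.15 (interaction adjusted p = 0.0366, from 0.0484 to 0.209 with an array left out).

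Of 9 atrophy ligases and FoxO factors 3 rose and 4 fell, and 1 rose without either PGC-1α array. Trim63, the ligase MuRF1 that marks sarcomere proteins for breakdown, fell from 635 and 640 to 61.4 and 41.5 (-3.66 ± 0.19) and Foxo3, a factor known to induce it, rose from 372 and 353 to 802 and 685 (1.03 ± 0.14). Among the other cell types the cultures could hold, the summed level of 7 markers of undifferentiated myoblasts and reserve cells was 1261 and 1330 without DFO and 640 and 564 with it. Without Myf5 the other 6 summed to 534 and 574 without DFO and 526 and 512 with it. Among those, Cd34, a marker of reserve cells, rose from 56.7 and 57.6 to 139 and 103 (1.06 ± 0.15). Vcam1, of the same set, went from 246 and 254 to 128 and 152. Of the 7 markers 1 was called higher and 2 lower. In the longer list of 17 such genes 4 rose and 6 fell. Myf5, a myoblast factor, went from 727 and 756 to 114 and 52.6 and Cdh15, or M-cadherin, from 1276 and 1285 to 120 and 120, while Id2, an inhibitor of MyoD-type factors, went from 608 and 531 to 1426 and 1326. The defining marker Pax7 was at 27.2 and 27.1 without DFO and 36.7 and 37.0 with it. The summed level of 10 myotube markers was 53252 and 53635 without DFO and 20808 and 19564 with it. The summed level of 3 adipocyte markers was 115 and 85.7 without DFO and 167 and 188 with it. All 3 were dim, with single values from 4.08 to 80.32, and none was called. In the longer adipocyte list of 7 none was called as deposited and 3 rose on the spike-in scale. The summed level of 4 osteoblast or chondrocyte markers overlapped between the groups, reaching 257 without DFO and 230 with it. In the longer osteoblast and chondrocyte list of 8, Sox9 rose (1.05 ± 0.09) and Ibsp fell from 49.6 and 73.0 to 30.7 and 29.5, a call that ended without any of 5 arrays. The part of other cell types in the muscle results was not tested further.

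Mitochondrial genes were lower by modest amounts, and the direction of most groups depended on the scale. On the deposited scale 18 of 34 complex I subunits fell and 1 rose (median -0.37), 7 of 14 genes of complexes II and III fell (median -0.34), 9 of 17 of ATP synthase (median -0.33) and 10 of 17 of the TCA cycle (median -0.37). On the spike-in scale these medians were 0.07, 0.10, 0.11 and 0.07, and limma passed 2 rises in complex I and no other member, with 4 at an unadjusted p under 0.05. On the hybridisation-control scale the medians lay between -0.07 and -0.03. Fewer of these falls were called with either PGC-1α array left out, as was also so over all genes, so a lower count need not mean a smaller fall. Without PGC-1α replicate 1 the counts of falls were 7 for complex I and 1 for ATP synthase, and without PGC-1α replicate 2 the TCA cycle had 2, while complexes II and III had 0 without PGC-1α replicate 1 by limma (7 at an unadjusted p under 0.05), 1 without its replicate 2 and 2 to 5 without any other array.

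Within these groups the individual values were tight. Cs, citrate synthase, read 8044 and 7936 without DFO and 7135 and 6814 with it (-0.20 ± 0.08, limma adjusted p = 0.128). Sdhb, the iron-sulfur subunit of complex II, read 6183 and 6357, then 5524 and 5347 (-0.21 ± 0.09, adjusted p = 0.164), and Cycs, cytochrome c, had -0.24 ± 0.12 (adjusted p = 0.209). Ndufs1, the largest subunit of complex I and a carrier of iron-sulfur clusters, went from 3507 and 3455 to 2183 and 2135 (-0.69 ± 0.08, adjusted p = 0.00322, and -0.25 with adjusted p = 0.291 on the spike-in scale). In GFP cells Ndufs1 went from 1925 and 1851 to 821 and 784. Both PGC-1α arrays with DFO thus lay above both untreated GFP arrays, a comparison that was not tested. Ndufb10 went from 6150 and 6059 to 3894 and 3539 (-0.72 ± 0.10), against 2460 and 2218, then 1015 and 1006, in GFP cells, with a call that ended on the spike-in scale (-0.28). Fh1, fumarase, and Cyc1, cytochrome c1, had -0.53 and -0.33, and on the spike-in scale -0.09 and 0.11. Ndufb4, the subunit that rose, was at 38.2 units or less, and its call ended without any of the 4 arrays compared.

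**Figure D4:**
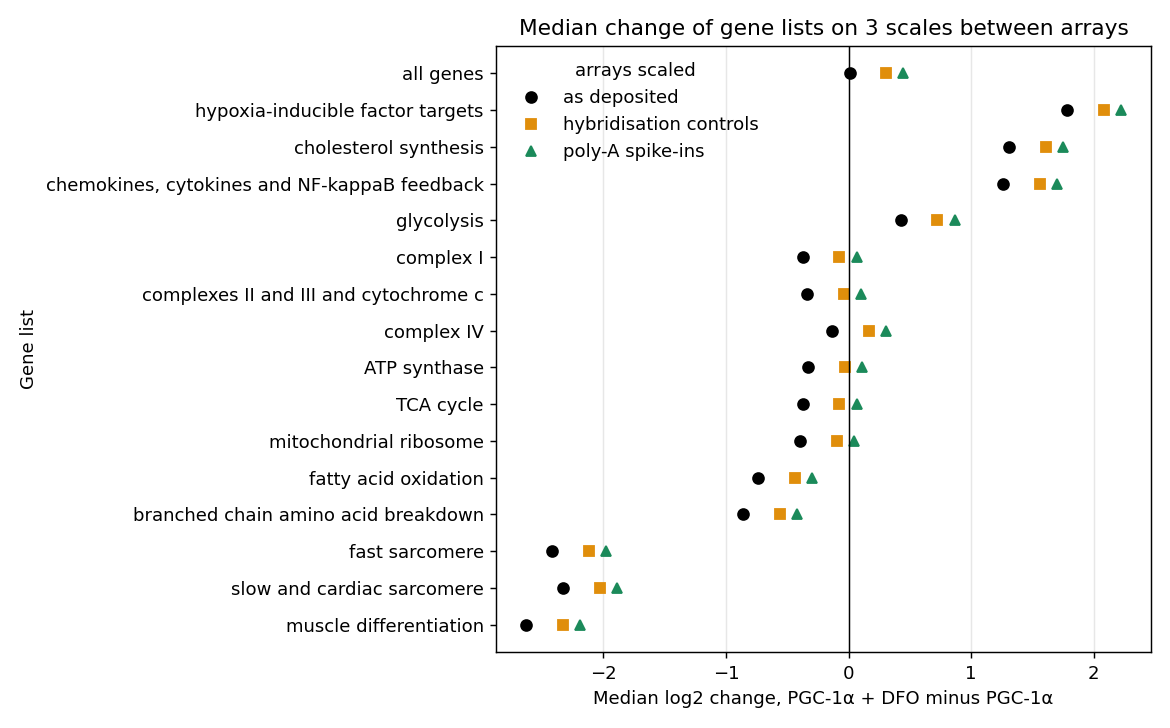
Median log2 change with DFO in PGC-1α myotubes of all genes and 15 gene lists, with arrays as deposited (circles), scaled to hybridisation controls (squares) or scaled to poly-A spike-ins (triangles). The scale shifts every median by the same amount, so the respiratory lists cross 0 while HIF targets (1.78 to 2.22) and muscle differentiation (-2.63 to -2.19) do not.

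Of 14 complex IV genes 3 fell and 1 rose, and 2 fell and 2 rose on the spike-in scale. The genes that fell, Cox8b, Cox6a2 and Cox7a1, are isoforms of heart and skeletal muscle. Cox8b went from 2138 and 2077 to 313 and 297 (-2.79 ± 0.11) and Cox6a2 from 3662 and 3785 to 1400 and 1353 (-1.44 ± 0.08). Both of these falls also passed on the spike-in scale. In GFP cells Cox6a2 went from 4357 and 4106 to 635 and 670, a larger fall (difference of changes 1.26 ± 0.12, interaction adjusted p = 0.0373, and from 0.0558 to 0.219 with an array left out). Cox7a1 fell (-0.35 ± 0.09, adjusted p = 0.048) and Cox7a2l rose (0.37 ± 0.08), each of which lost its call on leaving out 7 of the 8 arrays in turn, and Cox7a1 had 0.09 on the spike-in scale.

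Fatty acid handling fell in 15 of 20 genes and rose in 1, with a median of -0.74. On the spike-in scale 5 fell, with a median of -0.30. Cd36, a fatty acid transporter, went from 1072 and 1103 to 34.1 and 64.8 (-4.53 ± 0.30) and Fabp3, the muscle fatty acid binding protein, from 9195 and 9334 to 1888 and 1980 (-2.26 ± 0.09). Acadl, a dehydrogenase of long-chain acyl-CoA, went from 4416 and 4501 to 1581 and 1507 (-1.53 ± 0.08), a call that ended with the mean of its probe sets. These 3 lay lower with DFO on all scales. Cpt1a, which admits fatty acids to mitochondria, rose from 464 and 470 to 879 and 838 (0.88 ± 0.14, adjusted p = 0.00944, and 0.0555 without PGC-1α replicate 1).

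The mitochondrial ribosome fell in 43 of 75 genes and rose in 1, Mrps6, with a median of -0.39 that was 0.05 on the spike-in scale. The count of falls was 20 without PGC-1α replicate 1. Mrps28 and Mrps31 had -1.04 and -1.03. Among 27 genes of biogenesis and mitochondrial gene expression 9 fell, and 3 on the spike-in scale. Ppargc1b, the paralogue PGC-1β, went from 167 and 138 to 11.3 and 11.6 (-3.73 ± 0.33), and Tfam, which packages mitochondrial DNA, from 1458 and 1548 to 961 and 922 (-0.67 ± 0.08, and -0.23 with adjusted p = 0.362 on the spike-in scale).

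Of 27 partners and targets of PGC-1α 3 rose and 6 fell, with a median of -0.23 that was 0.20 on the spike-in scale. Esrra, the nuclear receptor ERRα, read 1004 and 1144 without DFO and 1197 and 1191 with it (0.16 ± 0.10, limma adjusted p = 0.317), against 180 to 240 on the GFP arrays. A second, dim probe set of Esrra had 1.64, from a mean of 47.6 to 143 (limma adjusted p = 0.0428 in a fit of every probe set). Ckmt2, mitochondrial creatine kinase, was at 683 and 622 with GFP and at 4904 and 5045 with PGC-1α, and DFO brought it to 81.5 and 97.5 and to 243 and 253. The fall of 4.33 on the log2 scale under PGC-1α compares with 2.87 with GFP, and the changes differed by -1.46 ± 0.17 (interaction adjusted p = 0.05, just under the threshold before rounding, and from 0.0755 to 0.186 with an array left out). Coenzyme Q synthesis fell in 8 of 12, and in 5 without PGC-1α replicate 1, with a median of -0.54 (-0.10 on the spike-in scale). Coq8a, a kinase-like protein of this pathway, went from 4277 and 4322 to 431 and 378 (-3.41 ± 0.10), against 3426 and 3273, then 1166 and 1220, with GFP (difference -1.92 ± 0.14, interaction adjusted p = 0.0251, from 0.041 to 0.178 with an array left out).

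Genes that handle iron were mixed. Of 23 measured 6 rose and 2 fell, with a median of 0.01. Fewer falls were called without either PGC-1α array, either GFP plus DFO array or PGC-1α plus DFO replicate 2. Transferrin receptor (Tfrc), whose mRNA is stabilised by iron regulatory proteins when iron is short, read 7693 and 8000 without DFO and 8151 and 7695 with it (0.01 ± 0.09, limma adjusted p = 0.938). The groups overlapped. Its 2 other probe sets had -0.41 and -1.23 and the 3 control probe sets of the gene, placed at its 3' end, middle and 5' end, had -0.46, -1.07 and -1.26 (limma adjusted p from 0.115 to 0.326). Fth1, the ferritin heavy chain that stores iron, read 10632 and 10486, then 8558 and 9154 (-0.25 ± 0.09, adjusted p = 0.0925), and its second probe set passed at -0.43. Slc40a1, the iron exporter ferroportin, fell from 411 and 440 to 77.8 and 70.2 (-2.52 ± 0.11), against 569 and 594, then 151 and 170, with GFP.

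Among the rises, Cp, the ferroxidase ceruloplasmin and a HIF target, went from 396 and 414 to 2187 and 1876 (2.32 ± 0.10). Slc39a14, a zinc and iron importer, went from 670 and 670 to 1476 and 1340 (1.07 ± 0.11), a call that ended with the mean of its probe sets. Slc11a2, the iron importer DMT1, rose from 378 and 371 to 682 and 683 (0.87 ± 0.08), whereas in GFP cells it went from 425 and 440 to 297 and 305. It thus moved in opposite directions, with a difference of changes of 1.39 ± 0.11 (interaction adjusted p = 0.0283, from 0.0484 to 0.178 with an array left out). Slc25a37, mitoferrin 1, which imports iron into mitochondria, rose from 642 and 629 to 1312 and 1124 (0.93 ± 0.10).

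Of 18 haem genes 3 rose and 5 fell, while 3 rose on the spike-in scale and limma called no fall (2 at an unadjusted p under 0.05). Hmox1, which breaks haem down and frees its iron, rose from 564 and 533 to 2287 and 2461 (2.11 ± 0.10) and Flvcr1, a haem exporter, from 110 and 121 to 383 and 337 (1.64 ± 0.14). Fech, the enzyme that puts iron into haem and itself holds an iron-sulfur cluster, fell from 1456 and 1495 to 682 and 734 (-1.06 ± 0.09), with an adjusted p of 0.0565 on the spike-in scale. Of 22 genes that assemble iron-sulfur clusters 3 rose and 6 fell, while 4 rose and 1 fell on the spike-in scale. Without PGC-1α replicate 1 the counts were 1 and 4. The share called as deposited, 40.9%, was close to that of all genes above the median level (3738 of 9096). Nfu1, which delivers clusters to target enzymes, fell from 1759 and 1618 to 757 and 749 (-1.16 ± 0.08). Lyrm4, or ISD11, a partner of the desulfurase Nfs1, rose from 262 and 259 to 495 and 461 (0.87 ± 0.09), and Fdx1, a ferredoxin, from 3895 and 3953 to 5627 and 5428 (0.49 ± 0.09, with the call ended without either PGC-1α array). Fdx1 read 403 and 369, then 284 and 273, with GFP. The 19 mitochondrial enzymes that carry clusters or haem had 11 falls and 1 rise with a median of -0.39, and a median of 0.05 on the spike-in scale. Without PGC-1α replicate 1 the falls were 3 and without its replicate 2 they were 4.

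The metallothioneins, small proteins that bind zinc and copper, rose. Mt2 went from 1280 and 1213 to 9679 and 9338 (2.93 ± 0.08) and Mt1 from 3350 and 3456 to 11431 and 11972 (1.78 ± 0.11). In their list of 7 the zinc importer Slc39a10 also rose (1.56 ± 0.13) and the zinc exporter Slc30a1 fell (-0.63 ± 0.09, and -0.19 with adjusted p = 0.453 on the spike-in scale). Cholesterol synthesis rose in 12 of 16 genes and 4 did not pass, with a median of 1.31 (1.75 on the spike-in scale) beside 1.74 in GFP cells. Stard4, a sterol carrier, rose from 181 and 173 to 1321 and 1206 (2.83 ± 0.10), and Sqle, squalene epoxidase, from 1093 and 1102 to 5264 and 5103 (2.24 ± 0.08). Cyp51, a haem enzyme of the pathway, rose from 418 and 429 to 1770 and 1652 (2.01 ± 0.09), and Idi1 from 344 and 356 to 1369 and 1251 (1.90 ± 0.09).

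Genes that break down branched chain amino acids fell in 13 of 20 cases, and in 8 without PGC-1α replicate 2, with a median of -0.86 (-0.42 and 4 falls on the spike-in scale). Ivd, isovaleryl-CoA dehydrogenase, went from 606 and 555 to 98.5 and 101 (-2.54 ± 0.09) and Pccb, of propionyl-CoA carboxylase, from 385 and 396 to 73.5 and 74.8 (-2.40 ± 0.10). ATF4 and stress response genes fell in 14 of 22 and rose in 4. On the spike-in scale 7 fell and 5 rose. Fgf21, a stress hormone that muscle releases, went from 2513 and 2301 to 48.9 and 79.0 (-5.27 ± 0.23), and the serine synthesis enzymes Phgdh and Psat1 from 3913 and 4187 to 696 and 711 (-2.52 ± 0.09) and from 4010 and 4060 to 1128 and 1079 (-1.87 ± 0.08). Atf4 itself did not fall. It read 5056 and 5013 without DFO and 6953 and 6666 with it (0.44 ± 0.08, adjusted p = 0.0148, and over 0.05 without either PGC-1α array), and Ddit3, or CHOP, rose from 1253 and 1267 to 3460 and 3166 (1.39 ± 0.08).

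Of 19 antioxidant enzymes 8 rose and 2 fell. Prdx3, the peroxiredoxin of mitochondria, fell from 2482 and 2400 to 1028 and 977 (-1.28 ± 0.08). Srxn1, sulfiredoxin, which restores peroxiredoxins, rose from 346 and 359 to 806 and 700 (1.09 ± 0.11), less than in GFP cells, where it went from 215 and 194 to 1126 and 1072 (difference -1.33 ± 0.16, interaction adjusted p = 0.05, and from 0.0552 to 0.253 with an array left out). Nqo1, an NRF2 target, read 37.7 and 73.0, then 158 and 156, against 139 and 120, then 817 and 809, with GFP. Of 16 heat shock genes 9 fell and 2 rose, with a median of -0.34 that was 0.10 on the spike-in scale, where 2 fell. With an array left out 5 to 7 fell, and 5 without either PGC-1α array, either GFP plus DFO array or PGC-1α plus DFO replicate 2. Hspb3, a small heat shock protein of muscle, went from 366 and 387 to 15.1 and 24.3 (-4.30 ± 0.24), and Dnajb1, a co-chaperone, rose from 504 and 463 to 1393 and 1293 (1.47 ± 0.10).

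Cell cycle genes moved little as a group. Of 20 genes of DNA replication 1 rose and 3 fell, while 4 rose and 1 fell on the spike-in scale. Without either GFP array 4 rose, and without PGC-1α replicate 2 the counts were 2 and 1. Rrm1, the large subunit of ribonucleotide reductase, fell from 1213 and 1143 to 411 and 517 (-1.35 ± 0.13, not called with the mean of its probe sets), while Rrm2, the subunit that holds the iron centre, read 3229 and 3112, then 3102 and 2905 (-0.08 ± 0.09, limma adjusted p = 0.601). Pcna, the sliding clamp, rose from 1531 and 1507 to 3346 and 3279 (1.12 ± 0.08). Mcm6 and Rrm2b fell by 0.78 and 0.64 on the log2 scale, and neither passed on the spike-in scale. Cdkn1a, the inhibitor p21, read 6151 and 6005, then 6208 and 6168 (0.03 ± 0.08, adjusted p = 0.848). In its list of 19, 3 rose and 5 fell (5 and 4 without PGC-1α plus DFO replicate 2, and 5 and 2 on the spike-in scale), with Gadd45b from 155 and 158 to 617 and 723 (2.10 ± 0.16) and Pmaip1, or Noxa, from 770 and 754 to 241 and 225 (-1.71 ± 0.10). Of 18 genes of mitophagy and autophagy 4 rose and 2 fell, led by Bnip3, and without PGC-1α replicate 1 the rises were 1. Without PGC-1α plus DFO replicate 1 the counts were 2 and 5.

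Among genes above the median level, the 8 largest rises were of Sprr2h, Pgf, Car9, Ier3, Mgarp, Ccnf, Sprr1a and Cxcl1. Sprr2h, a small proline-rich protein of squamous epithelium, read 16.6 and 17.1 without DFO and 3368 and 2907 with it (7.54 ± 0.38), and its relative Sprr1a 131 and 152, then 3849 and 3976 (4.79 ± 0.11). Ier3, an early response gene, went from 296 and 341 to 8898 and 9140 (4.83 ± 0.10). Ccnf, cyclin F, went from 25.8 and 30.7 to 832 and 751 (4.81 ± 0.16), and Mgarp from 36.2 and 17.7 to 718 and 703 (4.81 ± 0.36). The 8 largest falls were of Myog, Ldb3, Ogn, Tnni3, Pdlim3, C1qtnf3, Mybph and Fgf21. Ldb3 and Pdlim3 encode proteins of the Z-disc, and went from 1166 and 1117 to 23.4 and 9.84 (-6.23 ± 0.41) and from 2050 and 1958 to 48.2 and 49.3 (-5.36 ± 0.08). Tnni3, cardiac troponin I, was at 167 and 169 with GFP and at 1703 and 1783 with PGC-1α, and went to 39.6 and 43.7 with DFO (-5.39 ± 0.32). These 16 were picked by size of change among called genes whose 2 groups do not overlap. Their separation was thus set by the choice, and genes picked for large changes tend to keep their calls. The level was the mean log2 over all 8 arrays, those with DFO included. Sprr2h, Pgf, Car9, Ccnf and Mgarp read under the array medians on both PGC-1α arrays without DFO, so the arrays with DFO helped them pass that limit. All 16 stayed called with any array left out and on both other scales, which shift every change by far less than these. Ogn, the proteoglycan osteoglycin, went from 2822 and 2763 to 66.7 and 64.9, and C1qtnf3, a secreted relative of adiponectin, from 1346 and 1288 to 40.4 and 26.4.

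The change with DFO was mostly shared by the GFP cells, which share no array with this contrast. Of the 2079 genes higher in PGC-1α cells 1385 (66.6%) were called higher in GFP cells and 25 lower, and these are 64.7% of the GFP cells' rises. Of the 2583 lower, 1621 (62.8%, and 71.4% of the GFP cells' falls) were also lower and 19 higher. In GFP cells 24.2% of all genes were called, 11.8% higher and 12.5% lower. Across 9096 genes above the median level the log2 changes of both contrasts correlated with r = 0.868, and across all 18193 genes with r = 0.558. Both values describe genes, which are not replicates.

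**Figure D5:**
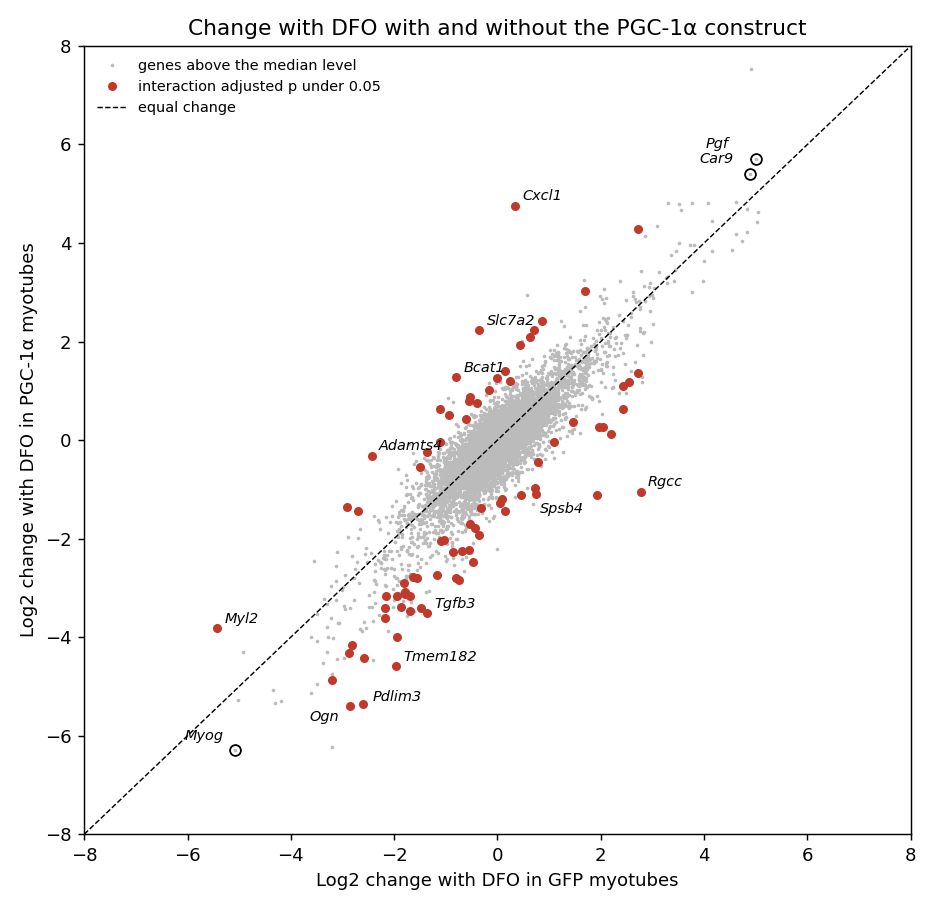
Log2 change with DFO in PGC-1α myotubes (vertical) against that in GFP myotubes (horizontal) for 9096 genes above the median level in grey, with genes whose interaction had a limma adjusted p under 0.05 in red and the line of equal change dashed. Most genes lie along the line (r = 0.868), Cxcl1 lies far above it and Rgcc far below it.

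The interaction, the change with DFO under PGC-1α minus that with GFP, passed for 101 of 18193 genes (0.555%), 42 higher (0.231%) and 59 lower (0.324%), and 3165 genes had an unadjusted p under 0.05. It ranged from 0 to 77 calls with an array left out, 0 being without GFP plus DFO replicate 1 (2089 at an unadjusted p under 0.05) and 77 without PGC-1α plus DFO replicate 1. The rest lay at 1 to 18: 2 without GFP replicate 1, 14 without GFP replicate 2, 5 and 18 without PGC-1α replicate 1 and 2, 1 without PGC-1α plus DFO replicate 2 and 2 without GFP plus DFO replicate 2. On the spike-in scale it was 3 (2 higher, 1 lower), on the hybridisation-control scale 53 (30 higher, 23 lower) and with the mean of probe sets 4, while among genes above the median level alone it was 1316, so which genes are counted depends strongly on the fit.

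The 6 largest on the higher side, among genes above the median level, were Cxcl1, Slc7a2, Adamts4, Bcat1, Enpep and Myl2. Slc7a2, a transporter of cationic amino acids, went from 142 and 151 to 788 and 605, and from 262 and 241 to 218 and 178 with GFP (difference 2.58 ± 0.24). Bcat1, the cytosolic aminotransferase of branched chain amino acids, went from 621 and 684 to 1615 and 1550, and from 673 and 692 to 390 and 395 with GFP (2.08 ± 0.12). Adamts4, a protease of matrix proteoglycans, held at 910 and 930, then 788 and 694, where GFP cells went from 795 and 947 to 153 and 169 (2.12 ± 0.18), and its second, dimmer probe set had 0.36 under PGC-1α. Enpep, a membrane aminopeptidase, read 89.4 and 104, then 145 and 153, against 207 and 196, then 95.9 and 90.2 (1.74 ± 0.15).

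Among genes above the median level, the 6 largest on the lower side were Rgcc, Spsb4, Pdlim3, Tmem182, Ogn and Tgfb3. Mymx, a dimmer gene, had -2.80 and lies outside that limit. Rgcc, a regulator of the cell cycle, read 105 and 103 with GFP, 750 and 666 with GFP plus DFO, 755 and 711 with PGC-1α, and 388 and 322 with both (difference -3.82 ± 0.18, interaction adjusted p = 0.0104, kept with 3 of the 8 arrays left out). Rgcc was thus low without either, high with either alone and between with both. Spsb4, of the SOCS-box family, read 31.2 and 33.0, 128 and 117, 400 and 473, and 248 and 162 in the same order of groups (-3.05 ± 0.31). Pdlim3, Tmem182, Ogn and Tgfb3 fell with DFO in both settings and further under PGC-1α. Tgfb3, transforming growth factor beta 3, went from 756 and 806 to 71.8 and 64.5, and from 1457 and 1473 to 565 and 575 with GFP (difference -2.16 ± 0.13), and Tmem182, a membrane protein of muscle, from 1740 and 1752 to 84.1 and 62.3, and from 2250 and 2447 to 581 and 629 with GFP (-2.63 ± 0.23).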

How the data were processed

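RNA of 8 C2C12 cultures was measured on Affymetrix Mouse 430 2.0 arrays. The deposited table holds 1 linear intensity per probe set and array. Their background correction, summary and scaling were done by the authors before deposit and are not given in the sources used here. The column medians show that arrays had been brought to a common level. Depth has no counterpart on arrays, so the number of arrays limits the precision.

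Values were taken to log2 with no pseudocount and no filter. Each gene was represented by its probe set of highest mean among 34945 probe sets with 1 gene symbol in GEO's platform annotation (932 had several and 9160 none), which left 18193 genes. A model with 1 mean per group was fitted to all 8 arrays with limma 3.58.1 in R 4.3.3, with empirical Bayes moderation (4 residual and 1.3 prior degrees of freedom) and Benjamini-Hochberg adjustment, and was tested on simulated data. The contrasts were DFO within PGC-1α cells, DFO within GFP cells and their difference. Groups came from the sample titles. Replicate numbers did not pair the samples (correlation of same-numbered deviations -0.025). Other scalings, probe rules, filters and models, and each array left out, were tried as alternatives. Scaling to hybridisation controls was chosen after seeing the data. Members and gene lists were chosen with earlier results of these data known.

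Genes were named by rule: a fixed set, the 8 largest rises and falls above the median level without overlap, up to 4 each way per list, and 6 each way for the difference. Egln2, Slc2a1, Ero1a, Chrng, Pgk1, Pdk1, Pfkfb3, Pfkfb4, Cxcl5, Ccl2, Lif, Tnfaip3, Nfkbia, Myod1, Mymk, Des, Tnnt1, Pax7, Fh1, Cyc1, Tfam, Slc11a2 and Rrm2 lie outside it and were chosen after their values were seen, as were the promoters printed. Vcam1 was named from the marker set after its values were seen. Promoter sequences are from RefSeq, GRCm38.p6. Figures were drawn with matplotlib 3.10.9.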

Additional observations from a re-analysis of the deposited data

Results flagged for a closer look

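The change with DFO differed between PGC-1α and GFP myotubes at a limma adjusted p of 0.05 or less for 26 of the genes named, given here as the log2 change under PGC-1α minus that with GFP. Among genes of HIF signalling and inflammation the difference was 1.26 for Pfkfb4, 4.42 for Cxcl1, 6.95 for Saa3, 4.97 for Cxcl5, 1.57 for Ptgs2, 1.27 for Ccl2 and 1.54 for Lcn2. Among muscle genes it was -2.80 for Mymx, -1.84 for Chrng, 1.61 for Myl2, -2.77 for Pdlim3, -2.54 for Ogn, -1.23 for Cdh15 and -2.63 for Tmem182. Among genes of mitochondria, iron and redox balance it was 1.26 for Cox6a2, -1.46 for Ckmt2, -1.92 for Coq8a, 1.39 for Slc11a2 and -1.33 for Srxn1. For the other genes it was -3.82 for Rgcc, -3.05 for Spsb4, -2.16 for Tgfb3, 2.12 for Adamts4, 1.74 for Enpep, 2.08 for Bcat1 and 2.58 for Slc7a2. Of these, Cxcl1 kept its call with 7 of 8 arrays left out in turn, Pdlim3 and Rgcc with 3, and 9 others with 1. No group has the 4 arrays needed to look for a single array standing apart.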

How the results depend on the processing

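Of 160 called changes with DFO that were followed, 117 stayed called under every alternative run except the 2-fold requirement. The 160 include some genes not named here, such as Cav3 and Idh2, and leave out some that are, such as Cd34. The 4662 calls became 1942 with only the groups compared in the fit, 1866 with a 2-fold minimum and 2637 to 4130 with an array left out. With the replicate block, for numbers that do not pair the samples, 4037 genes were called, 3893 of them shared, and the difference between constructs had 3 calls in place of 101. That difference had 216 calls after quantile normalization, 3 with poly-A spike-in scaling, 53 with hybridisation control scaling, 4 with the mean of the probe sets, 58 without _x_at and _s_at probe sets, 1316 among genes above the median level, 448 with a floor at the 25th percentile, 1467 with a trended and robust moderation, and 0 to 77 with an array left out (2089 at an unadjusted p under 0.05 where it was 0). It could not be fitted with only the groups compared.

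With poly-A spike-in scaling the median of 16 of 40 lists turned from below to above 0. It did so for 7 with a median beyond -0.3 as deposited: ATP synthase 0.111, TCA cycle 0.0655, complex I 0.0653, complexes II and III 0.102, heat shock 0.101, mitochondrial iron-sulfur and haem enzymes 0.0516 and mitochondrial ribosome 0.0475. The other 9 also turned with hybridisation control scaling: pyruvate and lactate, partners and targets of PGC-1α, biogenesis, iron-sulfur assembly, complex IV, haem, DNA replication, cell cycle exit and undifferentiated markers. Among named genes Cyc1 (0.109) and Cox7a1 (0.0886) turned. This follows from the scaling itself, which adds 0.44 to every change. With the mean of the probe sets Ppargc1a had -0.961, since 4 dim probe sets then weigh as much as the bright one. Falls smaller than about 0.44 on the log2 scale turn with that scaling, while rises keep their direction, and genes under about the median intensity vary more between arrays.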
